A study of Bos taurus with 15 samples.

Results

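FLT3 cells of the newborn (NB) liver and of the NB and adult (AD) cattle intestine were described at single-cell resolution. FLT3 is the receptor for FLT3 ligand, the cytokine that drives dendritic cell development, and here it was the gene that chose the cells. A barcode was taken when it held 500 to 4000 genes, fewer than 50000 unique molecular identifiers (UMIs, each a counted RNA molecule), at least 1 UMI of *FLT3*, and 0 UMIs of *CD3E* (T cells), *MS4A1* (B cells), *C1QA* (macrophages) and *STOML3*. In total 2740 barcodes met the rule, out of 101173 barcodes within the gene and UMI limits in 11 libraries and 132361 in the 15 libraries of the series. They came to 403 of 12734 barcodes in the NB liver, 1455 of 47981 in the NB intestine and 882 of 40458 in the AD intestine.

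Dendritic cells take up antigen in tissues, carry it to lymph nodes and present it to T cells. Conventional type 1 dendritic cells (cDC1) depend on the transcription factors IRF8 and BATF3, sense dead cells through CLEC9A, follow the chemokine XCL1 through XCR1 and present engulfed antigen on class I MHC. Conventional type 2 dendritic cells (cDC2) rely more on IRF4, carry SIRPA, CD1 molecules and lectin receptors such as CLEC10A, and mainly prime CD4 T cells, while mature dendritic cells of either kind gain CCR7, LAMP3 and FSCN1 and leave the tissue.

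The 11 libraries were droplet scRNA-seq of Holstein dairy cattle, without a sort for immune cells and without a transgene or treatment, 1 library for each tissue and stage. The NB libraries were liver, duodenum, jejunum, ileum, cecum, colon and rectum, collected from 3 calves, and which calf gave which library was not stated in the sources used here. The AD libraries were duodenum, jejunum, cecum and colon, all from 1 lactating cow. Exact ages were not given in the sources used here. Stage, animal and dissociation cannot be told apart, because NB intestine was taken apart with EDTA, trypsin and a lamina propria kit, AD duodenum and cecum with that kit alone, and AD jejunum and colon with a multi-tissue kit. NB liver was digested with collagenase, papain and DNase. Among the AD libraries, a difference between duodenum or cecum and jejunum or colon cannot be told apart from the kit. With 1 library per group there was no replicate and therefore no test. All intervals below are 95% intervals, exact Poisson for levels and exact Clopper-Pearson binomial for shares. For differences of shares they are approximate and combine the Clopper-Pearson limits of both shares. The intervals cover counting error only. Total UMIs per library ranged from 48674267 in the colon AD to 117505536 in the duodenum NB, and the median of the FLT3 cells from 6067.5 UMIs in the duodenum AD to 15968 in the ileum NB.

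The cells were chosen by measured values, their own UMIs of *FLT3* and of the excluded genes, and these were low. Of the 2740 cells, 1324 held 1 UMI of *FLT3* and 1416 held 2 or more, with a highest value of 18 UMIs in the duodenum AD. Within 250 genes of the upper limit, 86 members lay inside and 68 barcodes that met the rest of the rule lay outside. Within 50 genes of the lower limit, 20 members lay inside and 16 such barcodes outside. Of 5020 barcodes with *FLT3* within the limits, 1601 were removed for *C1QA*, 494 for *MS4A1*, 440 for *CD3E* and 75 for *STOML3*, some for more than 1 gene. Of the 1601 removed for *C1QA*, 939 held only 1 UMI of it and 492 held *CLEC9A* or *XCR1*. In the liver 52.1% of the *FLT3* barcodes held *C1QA*, beside 52.77% of all liver barcodes, so that the rule removed *FLT3* barcodes there at the rate at which *C1QA* was seen in the whole library. These values were also close in the duodenum NB (21.36% and 21.55%) and jejunum NB (45.6% and 46.44%). They were unlike in the duodenum AD (6.897% and 15.45%) and jejunum AD (33.56% and 54.59%). In the colon the *FLT3* barcodes held more, with 18.75% and 14.05% in NB and 6.818% and 5.522% in AD. A further 647 barcodes with *CLEC9A* or *XCR1* met every other part of the rule but held no *FLT3* UMI. No member shared its barcode sequence with a member of another library.

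FLT3 cells made up from 0.2782% to 9.101% of the barcodes within the limits. In the NB samples, the share was 9.101% (8.407 to 9.832) in the cecum, 3.317% (2.926 to 3.743) in the rectum, 3.165% (2.868 to 3.484) in the liver, 2.959% (2.608 to 3.342) in the duodenum, 2.014% (1.781 to 2.27) in the jejunum, 1.291% (0.9911 to 1.652) in the colon and 0.5683% (0.4116 to 0.7648) in the ileum. The intervals of rectum, liver and duodenum overlapped, and every other pair of neighbours in this order was apart. In the AD samples, the share was 5.838% (5.409 to 6.291) in the jejunum, 1.734% (1.492 to 2.004) in the duodenum, 0.3005% (0.2013 to 0.4313) in the cecum and 0.2782% (0.1818 to 0.4074) in the colon, where the last 2 overlapped.

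The direction between stages was not the same in all tissues. The jejunum AD share was 2.898 times the jejunum NB share, a difference of 3.824 percentage points (3.324 to 4.333). In the other tissues the share was lower in AD, by -8.8 points (-9.539 to -8.094) in the cecum, -1.224 points (-1.678 to -0.7822) in the duodenum and -1.013 points (-1.386 to -0.6862) in the colon. After each cell was thinned to 2000 UMIs, the jejunum kept a difference of 3.523 points and the cecum one of -3.791 points, whereas the duodenum difference of -0.196 points (-0.5456 to 0.145) was no longer apart from 0. These differences also moved with the rule. When cells with UMIs of 10 further lineage genes, *JCHAIN* among them, were removed as well, the jejunum difference turned to -0.6011 points, with -1.09 points in the duodenum, -2.643 in the cecum and -0.4045 in the colon. When the same was done without *JCHAIN*, the jejunum difference was 3.59 points, the duodenum difference turned to 0.171 points (-0.1785 to 0.5149), and the cecum and colon gave -3.316 and -0.3178 points.

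**Figure D1:**
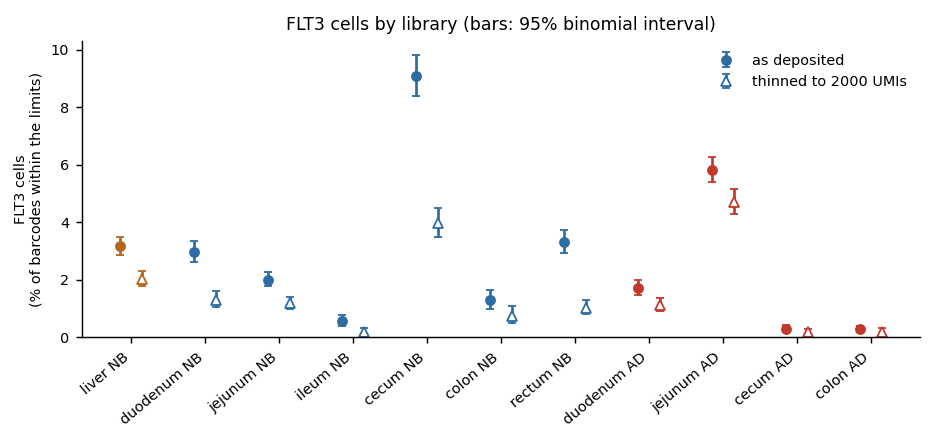
Share of FLT3 cells among barcodes within the limits (y axis, percent) in the 11 libraries (x axis), as deposited (filled circles) and after thinning to 2000 UMIs (open triangles), with 95% binomial intervals. The cecum NB was highest at 9.101%, and among the AD samples the jejunum stood at 5.838% while cecum and colon were near 0.3%.

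T cells should lack *FLT3*, and the share of *CD3E* barcodes with a UMI of it was taken as a background. It was lower than the share of all barcodes with *FLT3* in each library. In the jejunum AD, 3.938% of *CD3E* barcodes held *FLT3* (median of 4148.5 UMIs) beside 10.65% of all barcodes within the limits (median of 3940.5 UMIs). In the cecum NB these values were 4.433% and 14.31%, and in the liver 2.499% (median of 2767 UMIs) and 8.803% (median of 4793.5 UMIs). In the cecum AD they were 0.2064% (0.1203 to 0.3303) and 0.5077%, and in the colon AD 0.1482% (0.07659 to 0.2587) and 0.4708%. The share of members, from which cells with excluded genes are removed, overlapped that T cell level in the liver, the jejunum and colon NB and the cecum and colon AD. In these 5 libraries 2 or more UMIs of *FLT3* were held by 183 of 403, 120 of 264, 27 of 62, 23 of 29 and 17 of 26 members. In the duodenum and ileum NB, with 108 and 150 *CD3E* barcodes, the T cell level was not determined well enough to compare. With barcodes thinned to 2000 UMIs before their *FLT3* and excluded genes were read, and shallower barcodes left out, the share of *CD3E* barcodes with *FLT3* was below the share of members in all 11 libraries, at 0.3971% against 2.049% in the liver, 0.02601% against 0.176% in the cecum AD and 0 against 0.1959% in the colon AD. Epithelial barcodes with *EPCAM* held *FLT3* in 0.2291% (cecum AD) to 9.32% (cecum NB), the latter close to the 9.101% of members in that library, with medians of 8136.5 UMIs for *EPCAM* barcodes and 7846 for all barcodes there. The *EPCAM* level was also above the share of members in the liver (5.882%, 16 of 272 barcodes, against 3.165%) and the duodenum AD (2.146% against 1.734%). The same held in the ileum NB (0.6403% against 0.5683%) and the colon AD (0.3484% against 0.2782%). In the remaining libraries the *EPCAM* level was below the share of members. These are unlike measures, because *EPCAM* barcodes with excluded genes were not removed. Beside the share of all barcodes with *FLT3*, the *EPCAM* level was lower in each library. It was 5.882% against 8.803% in the liver, 9.32% against 14.31% in the cecum NB and 2.146% against 2.514% in the duodenum AD. In the ileum NB it was 0.6403% against 1.071%, and in the colon AD 0.3484% against 0.4708%.

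The dendritic cell label was then checked against marker genes. Levels are given as CPM, the UMIs of a gene scaled to 1000000 UMIs over the summed cells, and differences as the log2 ratio of (CPM + 10). A gene was counted with at least 10 UMIs and a mean of 10 CPM over both sides, and was called higher or lower when the ratio was at least 2-fold and the 95% Poisson intervals did not overlap. Where one side held 0 UMIs, the ratio depends on the added 10 CPM and is no bound. Since *FLT3* and the 4 excluded genes chose the cells, and the barcodes without *FLT3* still hold T cells, B cells and macrophages, this comparison is a description, and lower genes of those cell types follow in part from the rule. Against the barcodes of the same library without *FLT3*, 22 of 5254 genes (0.419%) were higher in FLT3 cells in all 11 libraries and 20 (0.381%) were lower. *CST3*, which encodes the protease inhibitor cystatin C and is abundant in dendritic cells, stood first: its level in FLT3 cells ran from 9334 CPM in the liver to 40457 CPM in the jejunum AD, against 236 to 4011 CPM in barcodes without *FLT3*, with log2 ratios of 2.79 to 6.08. *BATF3* had log2 ratios of 1.63 to 5.07, the endolysosomal nuclease gene *PLD4* 1.53 to 4.54, the lipid antigen-presenting *CD1D* 1.42 to 3.96, the transcription factor *ZNF366* 1.38 to 3.92 and the cross-presentation gene *WDFY4* 1.34 to 4.36. *PAK1*, *PARM1* and *ARHGAP18* were also among the 10 genes with the largest smallest ratio. Of the cDC1 genes fixed as a list, 5 passed the filter in all libraries and 3 of these were higher in all (*BATF3*, *WDFY4*, *ZNF366*), with a median log2 ratio of 2.37 beside -0.06 over all genes counted. Of 3 cDC2 genes that passed, *FCER1A* was higher in all 11 libraries (1.04 to 5.99). Of 8 class II MHC genes that passed, 6 were positive in all libraries (median log2 ratio 2.11), but none was called in all 11. *ZBTB46*, a transcription factor of conventional dendritic cells, was seen in only 0.993% (liver) to 11.5% (colon AD) of FLT3 cells.

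Complement C1q genes *C1QC* (-4.30 to -7.10) and *C1QB* (-3.88 to -6.85) were lowest relative to barcodes without *FLT3*, and they are partners of *C1QA*, which only the FLT3 cells were required to lack. Both had 0 UMIs in the FLT3 cells of the cecum AD, as did *C1QB* in the ileum NB. They were followed by *NKG7*, a cytotoxic granule gene, at -2.46 to -5.22. *GYPC*, *S100A13*, *RARRES1*, *ETS1*, *CCL8*, *HOPX* and *PLD3* were also among the 10 lowest. Macrophages are the other antigen-presenting myeloid cells of these tissues, and the barcodes with *C1QA* but without *FLT3* and the other excluded genes were therefore set beside the FLT3 cells. Here 21 of 5209 genes (0.403%) were higher in FLT3 cells in all 11 libraries and 88 (1.69%) were lower. *CST3* was again first (median log2 ratio 3.18), followed by *PAK1* and *NUP210*. *BOLA-DOB*, a chaperone subunit of the class II pathway, was higher with 1.31 to 2.49, and *ZNF366*, *CD1D*, *PLD4*, *LIMD2* and *AP1S3* were higher as well. Besides the C1q genes, the lower genes included *APOE* (a lipid carrier, median -6.47), *FOLR2* (folate receptor of tissue macrophages, -5.23), *CD68* (lysosomal, -4.28), *SELENOP* (-4.02), *FCGR1A* (the high-affinity IgG receptor, -3.93) and *MMP14* (-3.65). *CSF1R*, *CD14* and *VSIG4* from the fixed lists were lower in all 11 libraries too. Of 5 cDC2 genes that passed, *SIRPA* was lower in all 11 and *FCER1A* higher in all 11 (1.03 to 5.91).

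The cells were thus not uniform, and the name FLT3 cells is kept below. Among the 2740, *CLEC9A* or *XCR1* was seen in 983 (35.88%, 34.08 to 37.7), a cDC2 marker (*FCER1A*, *CD1E* or *CLEC10A*) in 1121 (40.91%), and *CCR7* together with *LAMP3* or *FSCN1* in 168 (6.131%). The cDC1 and cDC2 gates shared 87 cells, the cDC1 and mature gates 23, and the cDC2 and mature gates 76. A plasmacytoid gate (at least 2 of *SPIB*, *PTCRA*, *PACSIN1*, *TLR7* and *TLR9*) took 45 cells (1.642%) and a progenitor gate (*CD34*, *MPO* or *ELANE*) 113 (4.124%). None of these gates took 604 cells (22.04%), and in the liver that was 181 of 403 cells (44.91%). At least 1 UMI of a gene listed for another lineage (*CD3D*, *CD79A*, *JCHAIN*, *C1QB*, *EPCAM*, *COL1A2*, *PECAM1*, *CPA3*, *NCR1* or *ALB*) was seen in 1857 cells (67.77%), from 45.08% in the jejunum NB to 91.34% in the jejunum AD. Of these genes, *PECAM1* was higher in *CLEC9A* or *XCR1* cells than in the other FLT3 cells in all 6 libraries compared, and was called in 3. Summed over a list, T cell genes stood at 19.9 to 116 CPM in FLT3 cells against 38.7 to 2299.5 CPM in barcodes without *FLT3*, which unlike the FLT3 cells were not required to lack *CD3E*. B progenitor genes stood at no more than 2.31 CPM and mast cell genes at no more than 2.31 CPM. *RAG2* and *MS4A2* were at 0 in FLT3 cells of the liver. *EPCAM* was seen in 27.1% of FLT3 cells in the duodenum NB, against 50.3% of the barcodes without *FLT3* there, and in at most 12.2% elsewhere. The part of free RNA and mixed droplets in these values was not tested.

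The share of *CLEC9A* or *XCR1* positive cells differed between libraries. *CLEC9A* was seen in 982 of the 983 cells and *XCR1* in 54, and 53 cells held both. In the NB intestine they were 59.79% (55.68 to 63.8) of FLT3 cells in the cecum, 58.14% (42.13 to 72.99) in the ileum, 42.42% (36.39 to 48.63) in the jejunum, 36.25% (30.3 to 42.54) in the duodenum, 27.27% (21.88 to 33.2) in the rectum and 22.58% (12.93 to 34.97) in the colon. In the AD intestine they were 42.31% (23.35 to 63.08) in the colon, 39.88% (36.08 to 43.77) in the jejunum, 20.69% (7.994 to 39.72) in the cecum and 6.667% (3.492 to 11.36) in the duodenum. The liver NB had 37 such cells of 403, or 9.181% (6.547 to 12.43). The liver and the duodenum AD were the lowest, and of the other libraries only the cecum AD had an interval that overlapped theirs. Together the NB intestine had 45.29% (42.71 to 47.89), the AD intestine 32.54% (29.45 to 35.74). Thinned to 2000 UMIs, these shares were 19.72% and 18.65%, beside 4.847% in the liver, with overlapping intervals for the stages and the liver still low. The AD sum is mostly jejunum, which gave 647 of its 882 cells, and it covers differences within tissues that went in opposite directions.

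Within tissues, the AD share of *CLEC9A* or *XCR1* cells was lower by -29.59 points (-36.63 to -22.01) in the duodenum and by -39.1 points (-52.42 to -19.63) in the cecum. In the colon it was higher by 19.73 points, but the interval of -2.92 to 42.63 included 0. In the jejunum the difference was -2.548 points (-9.825 to 4.633), and after thinning it was 7.183 points (1.185 to 12.69). After thinning, the duodenum kept a difference of -19.81 points (-25.94 to -13.37) and the cecum one of -17.88 points (-25.01 to -1.629). The AD cecum and colon rested on 6 and 11 positive cells. The other gates moved differently: cDC2 marker cells ran from 13.95% in the ileum NB to 62.78% in the duodenum AD, and mature gate cells from 1.111% in the duodenum AD to 25.69% (20.42 to 31.54) in the rectum NB. *CCR7*, the lymph node homing receptor, reached 289 CPM in the rectum NB, 283 CPM in the cecum AD and 223 CPM in the colon AD, and in the duodenum it was 12.1 CPM in NB and 3.04 CPM in AD.

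**Figure D2:**
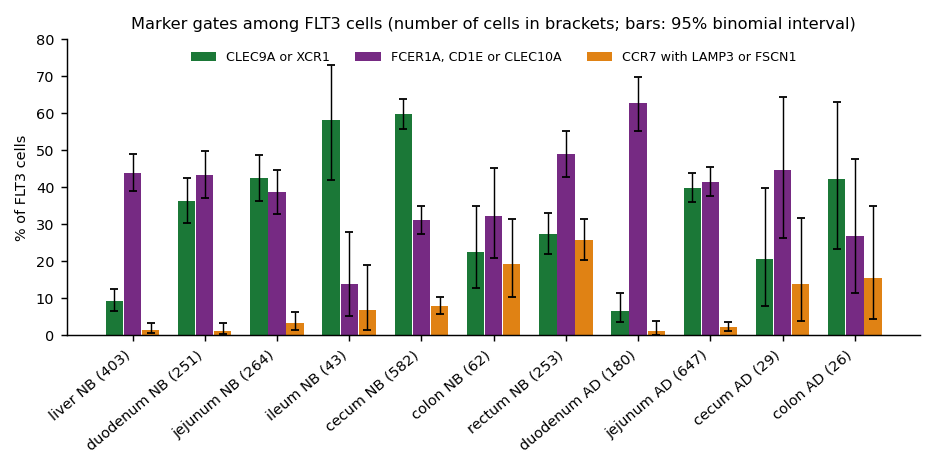
Share of FLT3 cells (y axis, percent) that held *CLEC9A* or *XCR1*, a cDC2 marker, or *CCR7* with *LAMP3* or *FSCN1*, in each library (x axis, cell number in brackets), with 95% binomial intervals. The first gate was largest in the cecum NB (59.79%) and smallest in the duodenum AD (6.667%), where the second reached 62.78%.

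The *CLEC9A* or *XCR1* cells were set against the other FLT3 cells in 3 blocks, the liver, the summed NB intestine and the summed AD intestine. In all 3 blocks 55 of 5650 genes (0.973%) were higher and 113 (2%) lower. The cDC1 genes that had no part in the gate moved with it: of 8 that passed the filter in every block, 6 were higher in all (*CADM1*, *BATF3*, *IRF8*, *WDFY4*, *SNX22* and *DNASE1L3*), with a median log2 ratio of 2.00 beside -0.09 over all genes. Conversely, all 5 cDC2 genes that passed were lower in all (*FCER1A*, *CLEC10A*, *SIRPA*, *IRF4* and *CLEC4A*, median -2.90), where *CLEC10A* and *CLEC4A* had 0 UMIs in the liver positive cells. Each of these 11 genes was also called in the same direction in each of the 6 libraries that had 20 or more cells on both sides.

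*C3H1orf54*, the cattle counterpart of an uncharacterised human reading frame, and *DNASE1L3*, which encodes a secreted DNase, had the largest smallest ratios among the higher genes. *C3H1orf54* was at 898 CPM (816 to 986) in the positive cells and 40.8 CPM in the others in the liver, 872 against 116 CPM in the NB intestine and 1329 against 168 CPM in the AD intestine, and it was seen in 98.3% to 100% of positive cells. *DNASE1L3* was at 972 against 7.61 CPM in the liver, 1512 against 214 CPM in the NB intestine and 2032 against 271 CPM in the AD intestine. The endosomal GTPase gene *RAB7B* (log2 ratios 2.15 to 3.06), the sorting nexin gene *SNX22* (2.28 to 3.21), *LYZ2* (2.43 to 3.51), *PLAC8* (2.27 to 5.25), *RAB30* (2.33 to 3.63), *PLPP1* (2.18 to 2.71), *CD84* (1.99 to 3.02) and *ACP5* (1.98 to 3.18) completed the leading 10. *PLAC8* was higher in liver positive cells (1229 CPM) than in those of the NB (216 CPM) and AD intestine (551 CPM). *TLR3*, a double-stranded RNA sensor of the cDC1 list, did not follow the gate, with log2 ratios of -0.53, 0.16 and -0.18.

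Among the genes of antigen presentation, 3 of 12 class I genes were higher in all 3 blocks: the immunoproteasome subunit *PSMB9* (1.24 to 1.45), *WDFY4* and *RAB7B*. Of 9 class II genes none was called in all (median log2 ratio 0.41). *CST3* was at 26447 to 65632 CPM in positive cells and 6787 to 16275 CPM in the others, with log2 ratios of 1.96 to 2.06. *CXCL9*, a chemokine that attracts activated T cells, was the only one of 7 cytokine and chemokine genes that was higher in all blocks, at 378 against 9.44 CPM in the liver, 97.6 against 36 CPM in the NB intestine and 3021 against 622 CPM in the AD intestine. In the liver it rested on 8.11% of 37 cells, and of the 6 libraries with 20 or more cells on both sides it was called higher in 4, with a lowest log2 ratio of -0.09. *TNF* was called higher in 5 of these 6, and by block it was at 43.0 against 93.5 CPM in the liver, 553 against 200.4 CPM in the NB intestine and 99.7 against 8.77 CPM in the AD intestine.

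*CYBB*, *SIRPA* and *NFAM1* led the genes that were lower in the *CLEC9A* or *XCR1* cells. *CYBB*, a subunit of the NADPH oxidase, stood at 103 to 162 CPM in the other FLT3 cells and at most 2.47 CPM in the positive cells (-3.18 to -3.85). *SIRPA*, which binds CD47, was at 170 CPM in the liver, 98.4 CPM in the NB intestine and 96.9 CPM in the AD intestine, against 8.18, 3.08 and 1.57 CPM. The IgE receptor chain gene *FCER1A* was at 59.4, 331 and 671 CPM against 4.09, 9.36 and 2.52 CPM, with log2 ratios from -2.30 in the liver to -5.77 in the AD intestine. *CX3CR1*, the fractalkine receptor, was lower in positive cells by -2.67 to -4.57, and *NFAM1*, *CEBPD*, *RETN*, *LRRC25* and *FCER1G* were also among the 10 most reduced. The maturation genes *LAMP3* (-1.05 to -1.53), *FSCN1* (-1.42 to -2.40) and *CCL22* (-1.18 to -2.25) were lower in positive cells in all 3 blocks, 3 of 11 in that list, as were the sensors *STING1* and *NLRP3* (2 of 6). Of the 6 libraries with 20 or more cells on both sides, *STING1* was called lower in 6, *LAMP3* in 5, *FSCN1* and *NLRP3* in 4 and *CCL22* in 3, and *CCL22* reached 0.28 in 1 of them. *S100A12* and *CSF3R* (2 of 3 monocyte genes) and *MRC1* (1 of 3 macrophage genes) were lower in all 3 blocks too. By library, *EPCAM* was called lower in 5 of 6, and *KRT8*, *KRT19*, *COL1A2* and *COL3A1* in 4. *LYZ* and *PECAM1* went the other way, called higher in 4 and 3. The part of free RNA and mixed droplets was not tested.

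**Figure D3:**
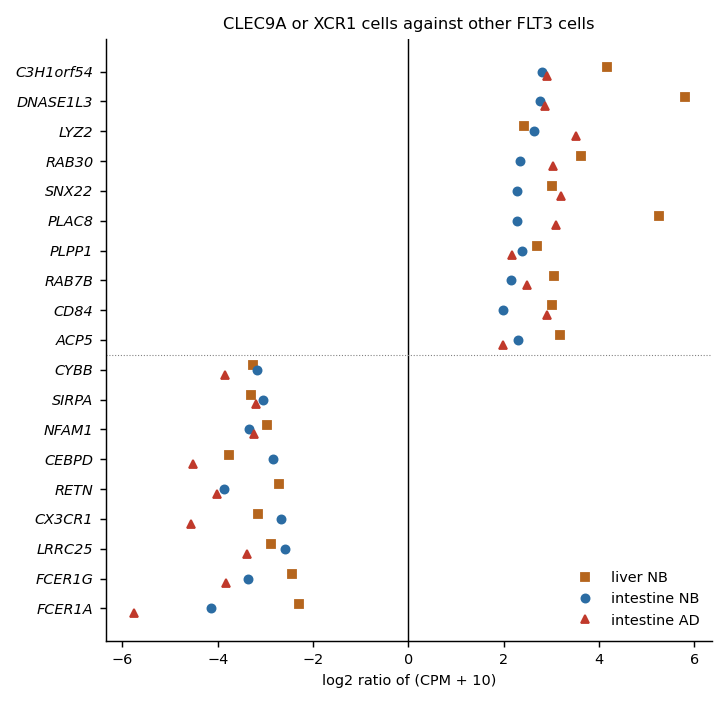
log2 ratio of (CPM + 10) between *CLEC9A* or *XCR1* cells and the other FLT3 cells (x axis) for leading genes in each direction (y axis), in liver NB (squares), NB intestine (circles) and AD intestine (triangles). *DNASE1L3* lay between 2.77 and 5.80 and *CYBB* between -3.85 and -3.18.

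Levels within the *CLEC9A* or *XCR1* cells differed between libraries. *IRF8* differed between the stages. In the AD samples it was at 673 CPM (513 to 866) in the duodenum, 607 CPM (463 to 781) in the cecum, 571 CPM (459 to 701) in the colon and 518 CPM (492 to 545) in the jejunum, 4 values whose intervals overlapped. In the NB samples it was at 244 CPM in both the cecum (231 to 258) and the rectum (215 to 277), 59.3 CPM (39.7 to 85.2) in the liver, 40.6 CPM (30.3 to 53.2) in the duodenum, 32.9 CPM (15 to 62.4) in the colon, 32.5 CPM (23.9 to 43.3) in the jejunum and 26.7 CPM (13.4 to 47.9) in the ileum. All AD samples were above all NB samples, and the cecum and rectum NB were above the other NB samples. The AD values came from 1 cow and rested on 12 positive cells in the duodenum, 6 in the cecum, 11 in the colon and 258 in the jejunum. *IRF8* was seen in 94.6% to 100% of positive cells in AD and in 28.6% (jejunum) to 94.2% (rectum) in NB. In *C1QA* barcodes of these libraries *IRF8* was higher in AD as well, where they held 125 to 149.6 CPM in AD, 94.6 CPM in the cecum NB, 44.6 CPM in the rectum NB and 4.64 to 8.59 CPM in the other NB samples. In barcodes without *FLT3* it was higher in AD than in NB in the duodenum (32.2 against 3.90 CPM), jejunum (85.2 against 6.33 CPM) and colon (15.9 against 4.33 CPM), but lower in the cecum (15.5 against 55.1 CPM). The part of free RNA in this was not tested.

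*BATF3* went the other way and within a narrow range, from 552 CPM (colon AD) to 1342 CPM (liver NB) in positive cells. All 4 AD samples (552 to 852 CPM) were below all 7 NB samples (904 to 1342 CPM), although the intervals of duodenum AD (671 to 1066) and cecum AD (651 to 1018) reached the lower NB samples. *DNASE1L3* in positive cells was at 1950.5 CPM in the duodenum AD against 1281 CPM in NB, 2089.7 against 1436 CPM in the jejunum, 1436 against 1682 CPM in the cecum and 1429.5 against 847 CPM in the colon. Over all FLT3 cells it differed in the opposite direction in the duodenum (log2 ratio of AD to NB -1.73), where the share of positive cells was lower in AD, and was called higher in AD in the colon (1.27). *CXCL9* in positive cells was at 3359 CPM (3291 to 3427) in the jejunum AD, where 58.5% of them held it, and at 524 CPM or less in each of the other libraries. In the same jejunum library, *CXCL9* stood at 848 CPM in the other FLT3 cells, 1215 CPM in barcodes without *FLT3* and 2566 CPM in *C1QA* barcodes.

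**Figure D4:**
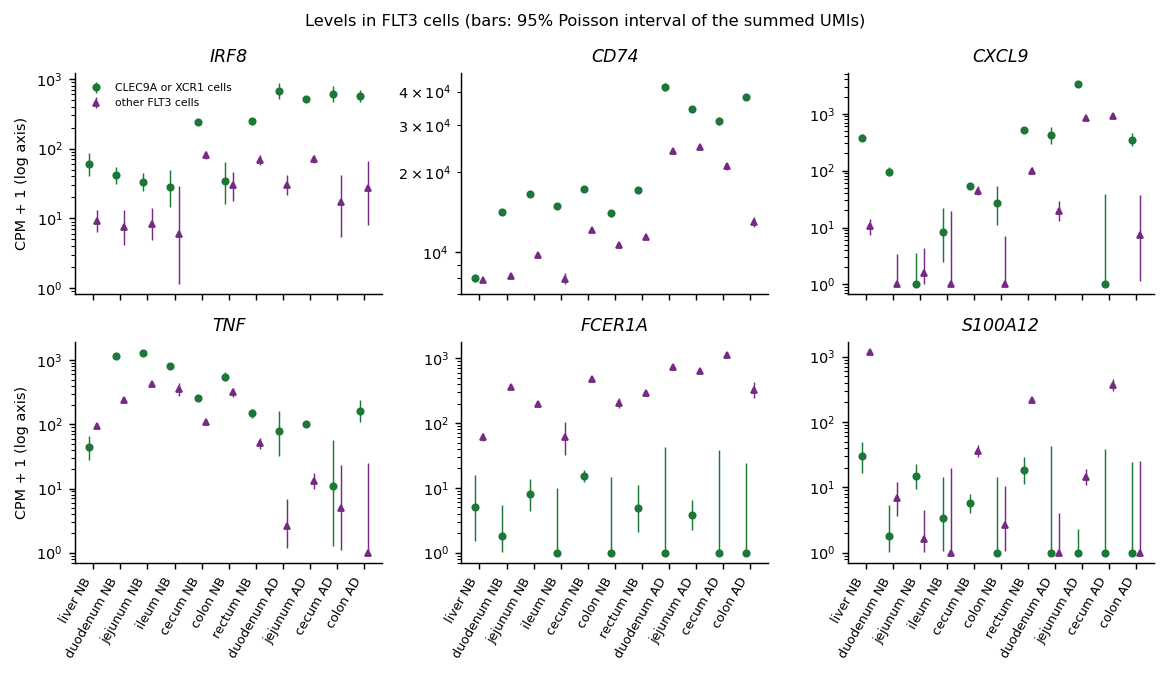
CPM + 1 (y axes, log scale) of 6 genes in *CLEC9A* or *XCR1* cells (circles) and the other FLT3 cells (triangles) of each library (x axes), with 95% Poisson intervals. *IRF8* in the former lay between 518 and 673 CPM in the AD samples and between 26.7 and 244 CPM in the NB samples, and *S100A12* was highest in the other FLT3 cells of the liver.

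AD FLT3 cells were then compared with NB FLT3 cells in duodenum, jejunum, cecum and colon. In all 4 tissues 18 of 5688 genes (0.316%) were higher in AD and 77 (1.35%) were lower. The lower genes were led by chaperones and stress-response genes. Of the 10 genes of the immediate early and stress list, all passed the filter and 8 were lower in AD in all 4 tissues (*JUN*, *JUNB*, *EGR1*, *ATF3*, *HSPA1A*, *HSPA6*, *DNAJB1* and *HSPH1*), with a median log2 ratio of -2.82 beside 0.11 over all genes. Their summed level was 2626 to 6383 CPM in AD and 17126 to 25260.5 CPM in the NB samples of these tissues. *BAG3*, an HSP70 co-chaperone gene, was at 700.3 CPM in the duodenum NB, 1253 in the jejunum NB, 2005 in the cecum NB and 498 CPM in the colon NB, against 22.8, 35.2, 98.2 and 22.3 CPM in AD. *HSPA6* was at 216 to 384 CPM in NB and 3.18 to 9.87 CPM in AD. In barcodes without *FLT3* the summed level of the list was 5574, 16169, 17683 and 9139 CPM in the duodenum, jejunum, cecum and colon NB and 6813, 2434, 5910.3 and 11263 CPM in AD. There it was lower in AD in jejunum and cecum and higher in duodenum and colon. In *C1QA* barcodes it was lower in AD in all 4 tissues, at 8036, 16806, 24881 and 13983.0 CPM in NB and 1821, 1671, 3160.2 and 4757 CPM in AD, so that the direction was shared by FLT3 cells and *C1QA* barcodes. *BAG3* had a median log2 ratio of -3.25 in barcodes without *FLT3* and -3.65 in *C1QA* barcodes, beside -4.33 in FLT3 cells. Dissociation differed between the stages, and its part was not tested.

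Of 5 cytokine and chemokine genes that passed the filter, *TNF* was lower in AD in all 4 tissues, and the list had a median log2 ratio of -0.52. *TNF* in FLT3 cells was at 663, 841, 209.8 and 390.2 CPM in the duodenum, jejunum, cecum and colon NB and at 6.83, 52.1, 5.77 and 82.7 CPM in AD. Its log2 ratios were -5.32, -3.78, -3.80 and -2.11, while in barcodes without *FLT3* the median was 0.01 and in *C1QA* barcodes -2.51. *TNFAIP3*, a brake on NF-kB signalling, was lower by -2.46 to -2.77 (-0.29 and -1.50 in those barcodes). The neutrophil-attracting chemokine gene *CXCL3* was at 77.2 to 507 CPM in NB and had 0 UMIs in the FLT3 cells of all 4 AD samples. Its median log2 ratio was -4.48 in FLT3 cells, -4.78 in barcodes without *FLT3* and -4.01 in *C1QA* barcodes. *CXCL8*, *ZFAND2A*, *DNAJA4* and *MAFF* completed the 10 leading genes. *CD83*, a maturation marker, was lower in the duodenum (-4.17), jejunum (-2.36) and cecum (-2.21) but only by -0.74 in the colon.

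Of 8 proliferation genes that passed, *TOP2A* and *UBE2C* were lower in all 4 tissues, 5 genes were negative in all 4, and the list had a median log2 ratio of -2.04. *TOP2A* was seen in 17.5% of FLT3 cells in the duodenum NB, 20.8% in the jejunum NB, 9.79% in the cecum NB and 17.7% in the colon NB, against 1.67% to 3.85% in AD. *MKI67* was called lower in 3 tissues, with -0.53 in the cecum. In barcodes without *FLT3*, *TOP2A* had a median log2 ratio of -1.25. The transcription factor gene *KLF4* was the only one of 6 cDC2 genes that was lower in all (-1.98 to -3.69), and it was lower outside the FLT3 cells too, with medians of -2.21 in barcodes without *FLT3* and -2.66 in *C1QA* barcodes.

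*JCHAIN*, the joining chain of antibody made by plasma cells, was the most strongly raised gene in AD FLT3 cells, at 36864, 3921, 6389 and 21812 CPM in the duodenum, jejunum, cecum and colon against 2.85, 2.29, 487 and 438 CPM in NB. It was higher in AD in the rest of the library too, with log2 ratios of 1.73 to 11.3 in barcodes without *FLT3*. Those barcodes held 33407, 15629.6, 7828 and 8043 CPM in AD. The level in AD FLT3 cells was near theirs in the duodenum and cecum, lower in the jejunum and higher in the colon. In the duodenum AD, 88.9% of FLT3 cells and 87.4% of those barcodes held it. *ALDOC*, which encodes a glycolytic aldolase, did not follow the rest of the library. It was at 262, 152, 162 and 95.5 CPM in AD FLT3 cells against 23.5, 23.8, 22.2 and 21.9 CPM in NB, with log2 ratios of 3.02, 2.26, 2.42 and 1.72, whereas barcodes without *FLT3* had ratios of -0.15 to 0.54 and *C1QA* barcodes -1.13 to 0.56. *TBC1D9* (1.33 to 2.08, beside a median of -0.17 in barcodes without *FLT3* and 1.07 in *C1QA* barcodes) and the Golgi mannosidase gene *MAN1A1* (1.17 to 1.73, beside 0.40 and 0.95) were higher too. *UBD* (1.63 to 3.64), *RINL*, *PTK2B*, *DDX6*, *UPF2* and *ASAP1* completed the 10, and for *UBD*, *RINL*, *PTK2B*, *DDX6* and *UPF2* the median ratio in barcodes without *FLT3* was larger than in FLT3 cells.

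Over all FLT3 cells, the cDC1 and class II lists did not separate the stages across all tissues. None of 9 cDC1 genes and none of 10 class II genes was called in all 4 tissues (median log2 ratios -0.05 and 0.38). Of 6 cDC2 genes, *KLF4* was called in all 4, as given above. These sums mix unlike shares of *CLEC9A* or *XCR1* cells, and within those cells *IRF8* was higher in all AD samples than in all NB samples. *CD74*, the invariant chain of class II MHC, was at 25230.5, 29199, 23870.0 and 25726 CPM in AD and 10941, 12969.9, 15654 and 11697 CPM in NB, called higher in 3 tissues with 0.61 in the cecum, and in *C1QA* barcodes its median log2 ratio was 2.08. *BOLA-DRA*, the class II alpha chain, differed by no more than 0.32. *FCER1A* and *CX3CR1* were higher in AD in duodenum (1.77 and 2.24), jejunum (1.59 and 1.71) and cecum (2.21 and 2.55) but not called in the colon (0.18 and 0.62). In barcodes without *FLT3* the median log2 ratios of *FCER1A* and *CX3CR1* were -0.64 and 0.16.

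Several genes of the lists went in opposite directions between tissues. The chemokine genes *CCL17* and *CCL22* were higher in AD in the duodenum (2.61 and 1.25) and cecum (2.70 and 2.04) and lower in the colon (-1.48 and -2.22). The interferon-stimulated *ISG15* was lower in the AD duodenum (-2.94) and higher in the cecum (2.87) and colon (2.29), where 10.3% of the 29 and 15.4% of the 26 cells held it. *CADM1* and *RAB7B*, genes of the *CLEC9A* or *XCR1* cells, were lower in the AD duodenum (-1.05 and -1.11), *RAB7B* also in the AD cecum (-1.20), and both were higher in the AD colon (1.97 and 1.99).

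**Figure D5:**
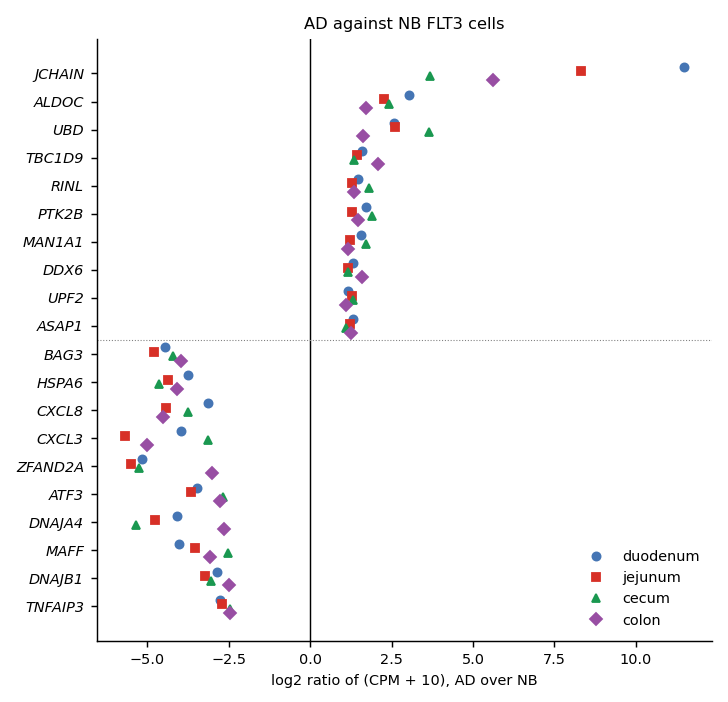
log2 ratio of (CPM + 10) of AD to NB FLT3 cells (x axis) for the 10 leading genes in each direction (y axis) in duodenum (circles), jejunum (squares), cecum (triangles) and colon (diamonds). *ALDOC* lay between 1.72 and 3.02 and *BAG3* between -4.80 and -3.98, and *JCHAIN* reached 11.49 in the duodenum. *CXCL3* had 0 UMIs in all 4 AD samples, so that its ratios depend on the added 10 CPM.

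The NB liver was set against each of the 6 NB intestinal libraries. In all 6, 44 of 6032 genes (0.729%) were higher in liver FLT3 cells and 60 (0.995%) were lower, beside a median log2 ratio of 0.20 over all genes. With the ratios centred on that median the counts were 32 and 73. *S100A8* and *S100A9*, which encode calprotectin, and the related *S100A12* were among the leading genes. *S100A12* was at 1008 CPM in the liver, 148 CPM in the rectum and 1.16 to 14.3 CPM in the other NB intestinal libraries, and *S100A9* at 754.5 CPM against 52.6 CPM in the rectum and 0 to 7.43 CPM elsewhere. *S100A8*, *S100A9* and *S100A12* were the 3 of 8 monocyte genes that were higher against all 6 libraries, and the list had a median log2 ratio of 3.26. *FCN1*, another monocyte gene, was at 459 CPM in the liver and 269.8 CPM in the rectum and was called against the other 5 libraries. The barcodes without *FLT3* in the liver held more of it all: *S100A12* was at 2761 CPM there, and its median log2 ratio against the intestine was 5.26, beside 6.07 in FLT3 cells.

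At least 2 of *S100A8*, *S100A9*, *S100A12* and *FCN1*, a combination chosen after these values were seen, were found in 85 of 403 liver FLT3 cells (21.09%, 17.21 to 25.4) and in 36.31% of the liver barcodes without *FLT3*. Among the liver *CLEC9A* or *XCR1* cells it was 1 of 37 and among the others 84 of 366 (22.95%). In the rectum NB it was 36 of 253 (14.23%), close to the 13.79% of the barcodes without *FLT3* there. In the other 9 libraries it was 0% to 6.897% of FLT3 cells.

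Further genes that were higher in liver FLT3 cells were the scavenger receptor gene *MSR1* (1.57 to 2.35), the nucleotide hydrolase gene *SAMHD1* (1.66 to 3.22), *BRB* (213 CPM against at most 18.8 CPM), *VNN2* (1.65 to 2.57) and *ADD3* (1.48 to 2.00). Most of these were also higher in the rest of the liver library: in barcodes without *FLT3* the median log2 ratio was 2.17 for *MSR1*, 2.57 for *SAMHD1*, 3.42 for *BRB* and 3.32 for *VNN2*, and in *C1QA* barcodes it was 0.71, 2.25, 1.96 and 3.39. *ADD3* had a median of 0.37 in barcodes without *FLT3* and 0.06 in *C1QA* barcodes. The phosphatidylserine receptor gene *TIMD4* and the mannose receptor gene *MRC1* were higher against all 6 (2 of 4 macrophage genes), as was *BANK1* (1 of 2 B cell genes). *TIMD4* was at 142 CPM in liver FLT3 cells and 5.7 to 49.6 CPM in the intestine, with log2 ratios of 1.35 to 3.27, whereas in barcodes without *FLT3* the median was -0.73 and in *C1QA* barcodes -1.48. *CD1E*, of the cDC2 list, was at 53.5 CPM in the liver, 104 CPM in the rectum and at most 10.4 CPM in the other NB intestinal libraries. *FGB*, of the hepatocyte list, was higher as well, at 23.6 CPM in FLT3 cells and 541.5 CPM in barcodes without *FLT3*, with 0 UMIs of it in the FLT3 cells of 5 of the 6 intestinal libraries. *HP*, which is in none of the lists, was higher by 2.64 to 4.00, with a median of 3.91 in barcodes without *FLT3*. In the 2 libraries where *HP* was counted, it was called lower in *CLEC9A* or *XCR1* cells than in the other FLT3 cells.

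Lower in the liver were 6 of the 10 immediate early and stress genes (*FOSB*, *ATF3*, *HSPA1A*, *HSPA6*, *DNAJB1* and *HSPH1*, median of the list -1.97), which stood at 6656 CPM in sum against 15492 to 25260.5 CPM in the NB intestine. In barcodes without *FLT3* this sum was 8116 CPM in the liver and 5574 to 17683 CPM in the NB intestine. In *C1QA* barcodes, *DNAJB1* (-2.97 to -1.12) and *HSPH1* (-3.67 to -0.80) of this list were lower in the liver against all 6 libraries as well. *CD83* was at 235 CPM in liver FLT3 cells and 1111 to 1744 CPM in the intestine (-2.19 to -2.84), and *NFKBID*, an inhibitor of NF-kB, was lower by -3.22 to -4.14. *IL1A*, *MAFF*, *ZFAND2A*, *DNAJA4*, *CSRNP1* and *BAG3* were the others among the leading 10. In *C1QA* barcodes all of the leading 10 except *CSRNP1* (highest log2 ratio 0.18) were also lower in the liver against all 6 libraries. *DNASE1L3* was lower (132 CPM against 367 to 1256 CPM) in the liver, where the share of *CLEC9A* or *XCR1* cells was 9.181%, as were *IRF7*, *ISG15* and the epithelial gene *EPCAM*. Organ and dissociation cannot be told apart here.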

How the data were processed

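Droplet 3′ scRNA-seq libraries were used. The deposited values are UMI counts per gene and barcode, which the authors made with Cell Ranger (version 3.1.0 per the submitters' processing notes) on the cattle assembly ARS-UCD1.2. The annotation release is not given in the sources used here. All 27270 genes were read, of which 9572 carry an identifier without a symbol. No filter on mitochondrial UMIs was applied, doublets were kept (scored by Scrublet in scanpy 1.11.5 for an alternative), and free RNA was not removed. Counts were summed per library and group of cells, scaled to CPM, and compared as log2 of (CPM + 10) with NumPy 2.4.6, SciPy 1.17.1 and pandas 2.3.3. The comparison of summed counts was tested on simulated counts with known folds, and the thinning was checked on a simulated matrix. The other steps were not tested on simulated data. Of 267 genes fixed in 29 lists, 247 are in the files.

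Members and lists were chosen with earlier results of these data known. Named genes are those of the lists where results turn on them and, for each comparison, the 10 in each direction with the largest smallest ratio among genes called in every unit compared. Mitochondrial and ribosomal protein genes and the genes of the rule are not named, and some genes that the rule for named genes takes are not reported here. With 1 library per group no test was possible. Alternatives were FLT3 UMIs of at least 2, other limits and exclusions, doublet removal, thinning, pseudocounts, scaling, gene filters and leaving out libraries.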

Additional observations from a re-analysis of the deposited data

Results flagged for a closer look

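The share of FLT3 cells went in opposite directions between AD and NB: 3.824 percentage points higher in the AD jejunum, and -8.8 points in the cecum, -1.224 points in the duodenum and -1.013 points in the colon. The share of *CLEC9A* or *XCR1* cells among them also differed in direction, with -39.1 points in the cecum, -29.59 points in the duodenum, -2.548 points in the jejunum and 19.73 points in the colon, of which the last 2 have intervals that include 0. Thinned to 2000 UMIs, the jejunum difference was 7.183 points (1.185 to 12.69). These differences between tissues were not tested, because each tissue and stage was 1 library. For the same reason no sample could be checked for lying far from its group. The AD duodenum and cecum were dissociated with 1 kit and the AD jejunum and colon with another. Tissue and kit therefore cannot be told apart between these pairs.

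Libraries outside the comparisons also held barcodes that met the rule. The abomasum NB had 338 of 10004 (3.379%), of which 2 held *CLEC9A* or *XCR1*. The salivary gland NB had 9 of 2698 (0.3336%, above the 0.1112% that a count of 0 would allow, a limit that covers counting error and not free RNA or mixed droplets), the omasum NB 3 of 10974 and the reticulum NB 2 of 7512. In the abomasum barcodes, *EPCAM* was seen in 85.8% of them, against 54.11% of the abomasum barcodes without *FLT3*, and *CD74* in 19.82% against 22.58%, at 771.7 against 343.3 CPM. *CST3* was at 1021 against 324.6 CPM and *BATF3* at 30.6 against 3.85 CPM, while the leukocyte gene *PTPRC* was at 9.99 against 9.31 CPM. The median depth was 9610.5 UMIs in these barcodes and 6999 in those without *FLT3*. The mucus-associated *TFF2* was at 15657.9 against 1835.8 CPM, *TFF1* at 2870.6 against 347 CPM, *AGR2* at 5563 against 772 CPM, and *SPINK1* and *CLCA1* had log2 ratios of 2.86 and 2.83. For *BATF3* the shares of barcodes with a UMI were 5.325% and, without *FLT3*, 1.452%. These abomasum genes were chosen after their values were seen.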

How the results depend on the processing

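Of 190 values of the shares and gene counts under the alternatives, 134 stayed within the limits set for a change, 54 moved beyond them and 2 reversed. Of 1335 values of single named genes, 1282 kept their call, 53 lost it and none reversed. These genes were picked for the largest ratios in the same data, so that their kept calls do not speak for the other genes called. Of 32 values of the AD minus NB difference in the share of *CLEC9A* or *XCR1* cells within tissues, 25 stayed and 7 moved. The differences in the share of FLT3 cells (AD minus NB, percentage points) reversed in the jejunum to -0.6011 when cells with UMIs of *CD3D*, *CD79A*, *JCHAIN*, *C1QB*, *EPCAM*, *COL1A2*, *PECAM1*, *CPA3*, *NCR1* or *ALB* were also removed, which gave -2.643 in the cecum and -0.4045 in the colon. That exclusion gave a share of *CLEC9A* or *XCR1* cells of 2.804% in the liver, 33.45% in the NB and 28.26% in the AD intestine, 57 lower genes against barcodes without *FLT3* in the 7 libraries left, and 360 higher and 370 lower genes in AD in the 1 tissue left. Without *JCHAIN* in that list, an alternative chosen after seeing the data, the duodenum reversed to 0.171 and the cecum and colon gave -3.316 and -0.3178, the gate 3.478% in the liver and 35.14% in the NB intestine, 87 higher and 175 lower genes of the gate in the 2 blocks left, and 34 genes higher in AD in 3 tissues. With no exclusion the jejunum, cecum and colon gave 6.314, -13.8 and -1.861, the NB gate 48.5%, 11 lower genes against barcodes without *FLT3* and 69 higher in the liver. With at least 2 UMIs of *FLT3* the duodenum, jejunum, cecum and colon gave -0.4338, 2.983, -4.547 and -0.3802, the NB gate 51.87% and 65 genes higher in AD in 3 tissues. Thinning to 2000 UMIs gave -0.196 in the duodenum, -3.791 in the cecum and -0.5655 in the colon, a gate difference in the jejunum that changed sign to 7.183, and gate shares of 4.847% (liver), 19.72% (NB) and 18.65% (AD). A pseudocount of 1 CPM gave 28 genes higher in AD and 71 in the liver. One of 50 CPM gave 7 higher and 6 lower against barcodes without *FLT3*, 4 and 37 against *C1QA* barcodes, 25 and 24 for the gate, 7 and 50 for AD, and 12 and 34 for the liver. Fewer tissues or libraries to agree over give more genes by construction. Leaving out 1 tissue gave 28 to 39 genes higher in AD (each of duodenum, jejunum, cecum and colon raised the count over 1.5 times, colon to 39) and 84 to 119 lower (119 without cecum, 118 without colon). Leaving out 1 NB library gave 44 to 90 genes higher in the liver (90 without rectum) and 64 to 82 lower. With the *CLEC9A* or *XCR1* cells left out, also chosen after seeing the data, 38 genes were higher and 125 lower in AD in 3 tissues. In the liver, 30 genes were then higher and 72 lower against 5 libraries. The cause of the other moves was not tested. No paired analysis was possible because each tissue and stage was 1 library and the labels carry no replicate numbers. The number of cells limits the AD cecum and colon, with 29 and 26 FLT3 cells, and the ileum and colon NB, with 43 and 62.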
